A study of Mus musculus with 6 samples.

Results

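The 32 genes described here encode the ephrins and their Eph receptors, the Slits and their Robo receptors, and netrin 1 with its receptors. They were chosen by name from these families, with other members of the pathways counted apart, and were taken from 21728 protein-coding genes of the mouse build mm10 (autosomes 1 to 19 and X). Of the 32, 12 encode ligands (Efna1 to Efna5, Efnb1 to Efnb3, Slit1 to Slit3 and Ntn1) and 20 encode receptors (Epha1 to Epha8, Epha10, Ephb1 to Ephb4, Ephb6, Robo1, Robo2, Dcc, Unc5b, Unc5c and Neo1). CUT&Tag was the measurement: a transposase tethered by an antibody inserts adapters next to the bound mark, and the tagged DNA is sequenced. The mark was monomethylation of histone 3 lysine 4 (H3K4me1), found at active and poised enhancers.

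The samples were 3 wild-type whisker pads at embryonic day 12 (E12), one pad per replicate, of the strain labelled B6/J2, each dissociated whole to single cells. There was 1 genotype, 1 stage and no treatment. The labels contradict each other, since the titles of all 3 name a whisker pad but the source field of replicates 2 and 3 names adult kidney. The 3 matched IgG samples were not analysed here.

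Eph receptors are receptor tyrosine kinases, and ephrins are held on the surface of the neighbouring cell, so that binding usually makes cells or growth cones withdraw from each other and keeps cell groups apart. Slits are secreted and repel cells and axons that carry Robo receptors. Netrin 1 attracts axons through Dcc and repels them where Unc5 receptors are present. In the face, ephrin-B1 and its receptors act in the migration and outgrowth of neural crest mesenchyme, and axons of the trigeminal ganglion grow into the whisker pad during these days.

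The numbers of peaks deposited for replicates 1, 2 and 3 were 16788, 12969 and 13998, covering 2.23 to 2.47% of the sequenced bases of the genome. The lists hold no read counts, so the reads behind a single value cannot be taken from them. A peak carries a total signal, the pileup of fragments summed over its length, that is not scaled to depth, and each list holds the top 1% of that replicate's signal blocks. Therefore the text gives either the presence of a peak or a percentile, which is the rank of a peak by total signal within its own list, from 0 for the weakest to 100 for the strongest. The percentile of a gene is that of its strongest peak in each replicate. In Epha2, Ephb2, Ephb4, Ntn1, Robo1 and Slit2 this was not the same site in every replicate. A gene without a peak had no block strong enough for the list, and this does not show that the mark was absent. The pads are mixed tissue, so a mark in fewer cells and less mark per cell cannot be told apart.

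The lists were set against marker genes of the cell types the samples could hold. Of 14 genes of facial mesenchyme, 13, 13 and 13 had a peak over the body or within 5 kb of it in replicates 1, 2 and 3 (92.9% against 21.7% on average in genes of like length), and Foxc2 had none. Of 10 genes of surface ectoderm, 6, 6 and 4 had one (53.3% against 27.3%), with Krt14, Epcam, Esrp1 and Cldn4 at none. Of 10 genes of endothelium, 4, 3 and 3 had one (33.3% against 30.6%). Of 10 genes of neurons and glia, 2, 3 and 0 had one (16.7% against 20.7%). Of 14 genes of adult kidney, 5, 5 and 2 had one, a mean of 28.6% against 25.6% of genes of like length. Slc12a1 and Cubn had a peak in all 3 replicates, and that of Cubn was at percentiles 59.8, 54.0 and 66.5. Aqp2, Pax2 and Pax8 had one in replicates 1 and 2, and the other genes of this list had none. The count of kidney genes with a peak was thus no higher in the replicates whose source field names kidney than in replicate 1.

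The strongest H3K4me1 peaks of the guidance genes lay over Slit3, Efnb2, Efna5 and Efnb1 among the ligands and over Unc5b, Ephb3, Ephb2 and Robo1 among the receptors. For 7 of these 8, 200 bases of the reference are shown, centred on the highest pileup of replicate 1 in the strongest region that all 3 replicates shared, because these are the most strongly marked sites that the pads had in common. The window of Ephb3 lay over an untranslated region and is not printed. All 7 windows are intronic, on the plus strand of GRCm38 (mm10). Capitals mark matches, on either strand, to the letters CAGATG (an E-box bound by TWIST factors), TAATTA (homeodomain factors), CTTTGAA or CTTTGAT (TCF/LEF factors), GCCNNNGGC (AP-2 factors) and GGAATG (TEAD factors).
Slit3 (chr11:35384118-35384317): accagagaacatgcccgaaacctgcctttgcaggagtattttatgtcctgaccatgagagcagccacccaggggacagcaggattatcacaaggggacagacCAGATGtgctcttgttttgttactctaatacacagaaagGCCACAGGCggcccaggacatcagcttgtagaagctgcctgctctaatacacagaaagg
Efnb2 (chr8:8649279-8649478): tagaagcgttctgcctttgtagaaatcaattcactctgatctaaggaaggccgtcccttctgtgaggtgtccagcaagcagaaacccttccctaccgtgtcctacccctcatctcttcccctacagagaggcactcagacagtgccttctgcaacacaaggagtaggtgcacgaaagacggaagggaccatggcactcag
Efna5 (chr17:62819388-62819587): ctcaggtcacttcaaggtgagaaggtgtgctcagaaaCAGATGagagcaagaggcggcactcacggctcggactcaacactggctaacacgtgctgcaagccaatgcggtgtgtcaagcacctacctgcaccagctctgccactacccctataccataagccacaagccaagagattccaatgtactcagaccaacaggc
Efnb1 (chrX:99141229-99141428): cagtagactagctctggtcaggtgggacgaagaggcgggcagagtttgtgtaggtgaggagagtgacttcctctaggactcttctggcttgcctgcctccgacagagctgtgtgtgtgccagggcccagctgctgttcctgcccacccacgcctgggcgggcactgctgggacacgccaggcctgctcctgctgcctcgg
Unc5b (chr10:60814585-60814784): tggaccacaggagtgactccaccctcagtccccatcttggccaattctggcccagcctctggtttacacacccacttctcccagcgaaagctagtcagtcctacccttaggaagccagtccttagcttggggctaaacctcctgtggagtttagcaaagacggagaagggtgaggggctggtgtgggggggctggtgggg
Ephb2 (chr4:136780534-136780733): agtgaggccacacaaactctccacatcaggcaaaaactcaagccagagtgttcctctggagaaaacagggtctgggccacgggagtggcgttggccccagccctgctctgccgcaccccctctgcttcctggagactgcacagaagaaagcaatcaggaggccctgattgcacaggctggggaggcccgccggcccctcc
Robo1 (chr16:72853237-72853436): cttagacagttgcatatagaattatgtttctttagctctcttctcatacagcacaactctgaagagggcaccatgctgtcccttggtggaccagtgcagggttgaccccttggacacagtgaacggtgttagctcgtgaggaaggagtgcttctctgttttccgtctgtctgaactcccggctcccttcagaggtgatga

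CAGATG was found in 2 of the 7 windows, those of Slit3 and Efna5, and GCCNNNGGC in 1, that of Slit3. None of the other motifs was found, and 5 windows held no match. Over windows of the same length in all 8916 regions that the 3 replicates shared, CAGATG was in 19%, GCCNNNGGC in 9.24%, GGAATG in 12.3%, CTTTGAA or CTTTGAT in 5.63% and TAATTA in 2.31%. The Slit3 window is 50.5% G and C and lies 263 kb downstream of the start of the gene. The windows of Efnb2, Efnb1 and Unc5b lie nearer, at 11.9, 5.20 and 16.9 kb from the first annotated start, while those of Efna5, Ephb2 and Robo1 lie at 61.8, 55.4 and 545 kb.

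Most guidance genes had an H3K4me1 peak, and the ligands had one more often than the receptors. Of the 32 genes, 26 had a peak over the body or within 5 kb of it in replicate 1, 24 in replicate 2 and 24 in replicate 3. The shares of all protein-coding genes were 24.9, 22.6 and 19.6%. In all 3 replicates a peak was present at 21 of the 32 (65.6%), against 15.5% of all genes and 31.9% of genes of like length. The genes of like length were the 100 shorter and 100 longer protein-coding genes nearest to each member, and they are needed because long genes collect more peaks. Averaged over the replicates, 77.1% ± 3.61 (SD, n = 3) of the guidance genes had a peak against 40% of genes of like length, a difference of 37.1 ± 2.10 percentage points.

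All 12 ligand genes had a peak in replicates 1 and 2, and 11 of 12 had one in replicate 3, where Efna2 had none. The 11 ligands with a peak in all 3 replicates made up 91.7%, against 26.3% of genes of their length. Among the receptors 14, 12 and 13 of 20 had a peak. The 10 receptors with a peak in every replicate made up 50%, against 35.3% of genes of their length. The receptors are the longer genes, with a median body of 158 kb against 28.3 kb for the ligands, and genes of their length had a peak more often, at a mean of 43.9% against 33.6% for genes of ligand length.

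The share of ligands with a peak exceeded that of receptors by 30.0, 40 and 26.7 percentage points in the 3 replicates. The mean difference was 32.2 ± 6.94 (SD, n = 3). After the share of genes of like length was taken from each, the difference was 40, 49.0 and 38.4 points, a mean of 42.5 ± 5.75. It had the same direction in 3 of 3 replicates, and the exact two-sided sign-flip permutation test gave p = 0.25 for both, the smallest p that 3 replicates allow, so that this design cannot reach 0.05. Base composition moves with this difference, since the median G and C content was 51.1% for ligands and 44.5% for receptors. With genes matched on length and then on G and C content, the difference was 25.7 points, and the part of base composition in it was not otherwise tested.

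**Figure D1:**
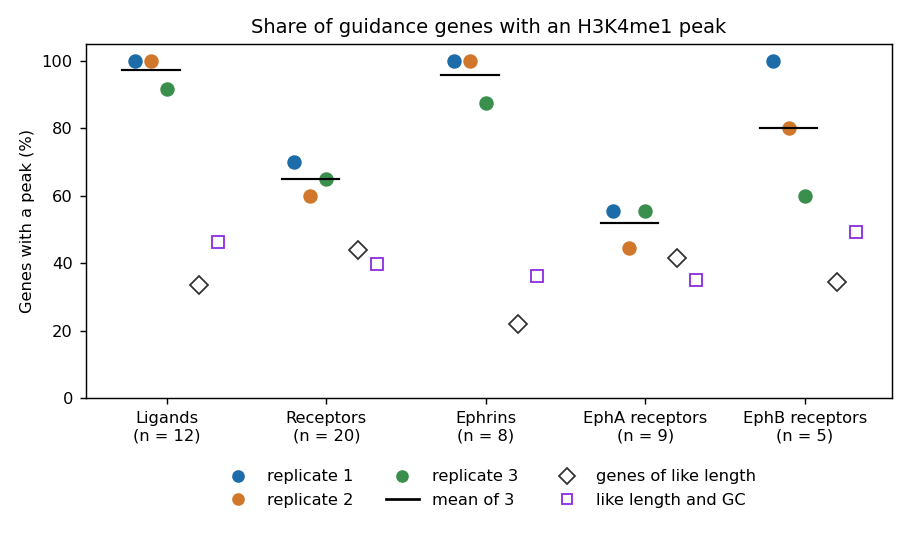
Share of genes in percent (vertical axis) with an H3K4me1 peak over the body or within 5 kb, for ligands, receptors, ephrins, EphA receptors and EphB receptors (horizontal axis). Points are the 3 replicates, lines their mean, open diamonds the mean of genes of like length and open squares that of genes of like length and G and C content. The 12 ligands sit at 100% in replicates 1 and 2 and 91.7% in replicate 3, and the 9 EphA receptors sit between 44.4 and 55.6%.

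Within the families the shares were uneven. The 8 ephrins, which bind Eph receptors, had a peak in 8, 8 and 7 cases. In all replicates 87.5% of them had one, against 15.3% of genes of like length. The 3 Slits had one in every replicate, against 47.2% of genes of like length. Of the 9 EphA receptors, which mainly bind the ephrin-A ligands, 5, 4 and 5 had a peak and 3 had one in all replicates (33.3%, against 33.1% of genes of like length). Of the 5 EphB receptors, which mainly bind the ephrin-B ligands, 5, 4 and 3 had a peak and 3 had one in all replicates (60%, against 26.8%). With genes also matched on G and C content, the shares beside these were 24.4% for the EphA and 38.0% for the EphB receptors. Both Robo genes had a peak in every replicate, and of the 4 netrin receptors 2, 2 and 3 had one.

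Of the ephrin-B genes, Efnb2 and Efnb1 were among the most strongly marked guidance genes by total signal. The strongest peak of Efnb2, an ephrin known as a mark of arterial endothelium, was at percentiles 96.4, 96.2 and 98.4 in replicates 1, 2 and 3. Efnb2 (ENSMUSG00000001300.16, chr8:8617434-8661242, minus strand) carried this peak in an intronic region of 18837 bp, and none of the 27 genes of its length that had a peak in all 3 replicates reached as high a mean percentile. By maximum pileup the mean percentile of Efnb2 was 71.6 against 97.0 by total signal. The mark at Efnb1, the X-linked ephrin mutated in craniofrontonasal syndrome, covered 65.7% ± 9.22 (SD, n = 3) of the body with its flanks, in 1 region of 17226 bp. Its percentiles were 92.8, 95.6 and 87.1, and by maximum pileup its mean percentile was 72.9 against 91.8 by total signal. Efnb3 had percentiles of 90, 86.4 and 35.7, from a region that reaches into the body of the neighbouring gene Wrap53 and cannot be assigned to 1 of the genes.

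Among the ephrin-A genes, Efna5 had by far the most peaks. Efna5 (ENSMUSG00000048915.12, chr17:62604184-62881317, minus strand) encodes an ephrin that repels retinal and thalamic axons in map formation. It had 21, 11 and 15 peaks, against a mean of 3.36 over genes of like length, and ranked 34 of all genes by mean number. Of its 17 merged regions, 10 were shared by the 3 replicates. Its strongest peak was at percentiles 94.2, 88.8 and 95.0, and 2.00% of genes of its length had as many peaks.

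The genes Efna1, Efna3 and Efna4 lie together within 66.3 kb on chromosome 3. Efna1, an ephrin of epithelium and vessels, had percentiles of 89.9, 89.8 and 67.5, from an intronic region 3.21 kb from its start. Efna3 had 90.5, 86.9 and 57.3, and Efna4 had 79.1, 87.5 and 2.39. All 3 genes were lower in replicate 3 than in either other replicate. The region of Efna4 reaches into the body of Adam15, and another one counted for Efna1 lies over Slc50a1. Efna2 had 1 peak in replicate 1 and 1 in replicate 2, at percentiles 57.7 and 42.2, in an intronic region of 2872 bp 1.80 kb from its start, and none in replicate 3.

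Slit3 stood out in the number of peaks. Slit3 (ENSMUSG00000056427.10, chr11:35121224-35708507, plus strand) encodes a secreted Slit made by many mesenchymal tissues. It had 35, 27 and 33 peaks, which ranked it 4 of all genes by mean number. Genes of its length had a mean of 3.79, none of the 200 had as many, and genes of like length and G and C content had a mean of 7.85. Merging gave 33 regions, and all 3 pads contributed to 26 of them, 2 pads to 2 and 1 pad to 5. The peaks covered 27.3% ± 1.93 (SD, n = 3) of the gene with its flanks, from the start site to 520, 519 and 518 kb of its 587 kb.

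The other Slit genes differed from Slit3. Slit2 had 3, 1 and 4 peaks, with percentiles of 79.4, 79.9 and 73.2. The mean of 2.67 peaks in Slit2 lay below the mean of 3.96 over genes of its length. It lay above the mean of 0.653 over genes of like length and G and C content. Its 1 region shared by all 3 replicates lay at the start of the gene, with the highest pileup over a coding exon 2.03 kb downstream. That region was at percentiles 79.4, 79.9 and 33.1, and the 73.2 of replicate 3 came from an intronic region 21.1 kb from the start, which was at 3.48 in replicate 1 and had no peak in replicate 2. Slit1, a Slit known mainly from the nervous system, had 3, 2 and 2 peaks, and percentiles of 86.7, 81.8 and 77.8 at an intronic region 125 kb from its start. The regions shared by the 3 replicates thus lay near the start in Slit2, inside the gene in Slit1 and along most of the gene in Slit3.

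Ntn1, which encodes the secreted guidance cue netrin 1, had 8, 6 and 2 peaks in replicates 1, 2 and 3, against a mean of 2.51 over genes of like length. Its percentiles were 78.4, 73.1 and 76.5, from different sites. The 78.4 of replicate 1 lay 185 kb into the gene, where replicate 2 was at 39.7 and replicate 3 had no peak, and the others lay 22.3 kb into the gene, where replicate 1 was at 67.3. Of its 8 regions, the 2 shared by the 3 replicates lay 22.3 and 27.4 kb into the gene.

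**Figure D2:**
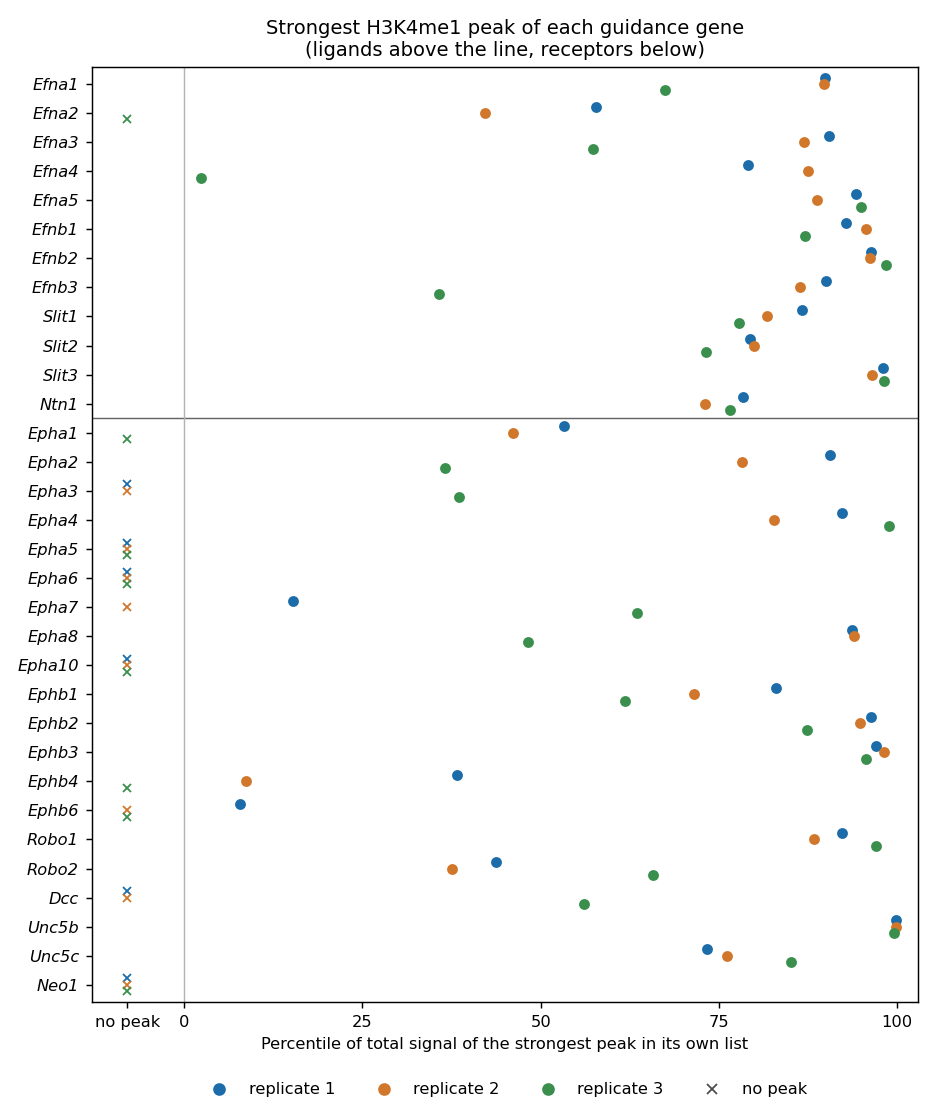
Percentile by total signal of the strongest peak (horizontal axis, 0 to 100) for each guidance gene (vertical axis, ligands above the line and receptors below). Colours mark the 3 replicates and crosses mark a replicate without a peak. Unc5b sits between 99.6 and 99.9 in the 3 replicates, and Epha5, Epha6, Epha10 and Neo1 have crosses alone.

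Among the receptors, the strongest mark lay over Unc5b. Unc5b (ENSMUSG00000020099.8, chr10:60762593-60831581, minus strand) encodes a receptor through which netrin 1 repels axons and restrains sprouting vessels. Its strongest peak was at percentiles 99.9, 99.9 and 99.6, in an intronic region of 28002 bp, and the gene ranked 31 by mean percentile among the 3372 genes with a peak in all 3 replicates. A further region of 9184 bp, at percentiles 93.2, 90.2 and 78.1, lay between it and the start. The mark covered 43.5% ± 4.34 (SD, n = 3) of the gene with its flanks. By total signal divided by length, the mean percentile was 98.8 for Unc5b, 99.1 for Slit3, 78.3 for Efnb2 and 69.4 for Efnb1.

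The other netrin receptors were marked less or not at all. Unc5c, a repulsive receptor of the same family, had 4, 4 and 6 peaks, with percentiles of 73.3, 76.1 and 85.1. Its mean of 4.67 peaks was close to the mean of 4.03 over genes of its length. It lay above the mean of 0.947 over genes of like length and G and C content. Dcc, through which netrin 1 attracts axons, had 1 intronic peak in replicate 3, at percentile 56.1, and none in the others. Genes without a peak in any replicate made up 33.1% of those of its length and 64.0% of those of like length and G and C content. Neo1, which binds netrins and repulsive guidance molecules, had no peak in any replicate, and the nearest peaks lay 34.4, 22.4 and 34.8 kb from its body.

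Robo1 was marked in its downstream part. Robo1 (ENSMUSG00000022883.11, chr16:72308306-73046095, plus strand), a receptor for Slits, had 13, 12 and 16 peaks, against a mean of 3.87 over genes of its length and 2.09 over genes of like length and G and C content, and ranked 55 of all genes by mean number. Its annotation has 3 protein-coding starts, the last of them 355 kb downstream of the first. In replicate 1 all 13 peaks and in replicate 2 all 12 lay downstream of that last start, and in replicate 3 this held for 13 of 16. The last start was looked at after the positions of the peaks had been seen. Of the 17 merged regions, 11 had a peak in all 3 replicates. The percentiles of the gene were 92.3, 88.4 and 97.0. In replicates 1 and 2 these came from the site shown, 545 kb from the first start, which was at 95.8 in replicate 3, and the 97.0 of replicate 3 came from a region 503 kb from that start, at 91.0 and 78.9 in the others. By maximum pileup the mean percentile was 98.7 against 92.6 by total signal.

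Robo2, the other Robo receptor, had 1, 1 and 4 peaks. Its mean of 2.00 lay below the mean of 3.75 over genes of its length. It lay above the mean of 0.607 over genes of like length and G and C content. Its percentiles were 43.8, 37.5 and 65.7, the lowest mean (49.0) of the 21 genes with a peak in all 3 replicates. The 1 region shared by the replicates lay 318 kb from its first start. The pair of Robo genes, with bodies of 738 and 520 kb, thus differed by 12, 11 and 12 peaks in the 3 replicates.

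**Figure D3:**
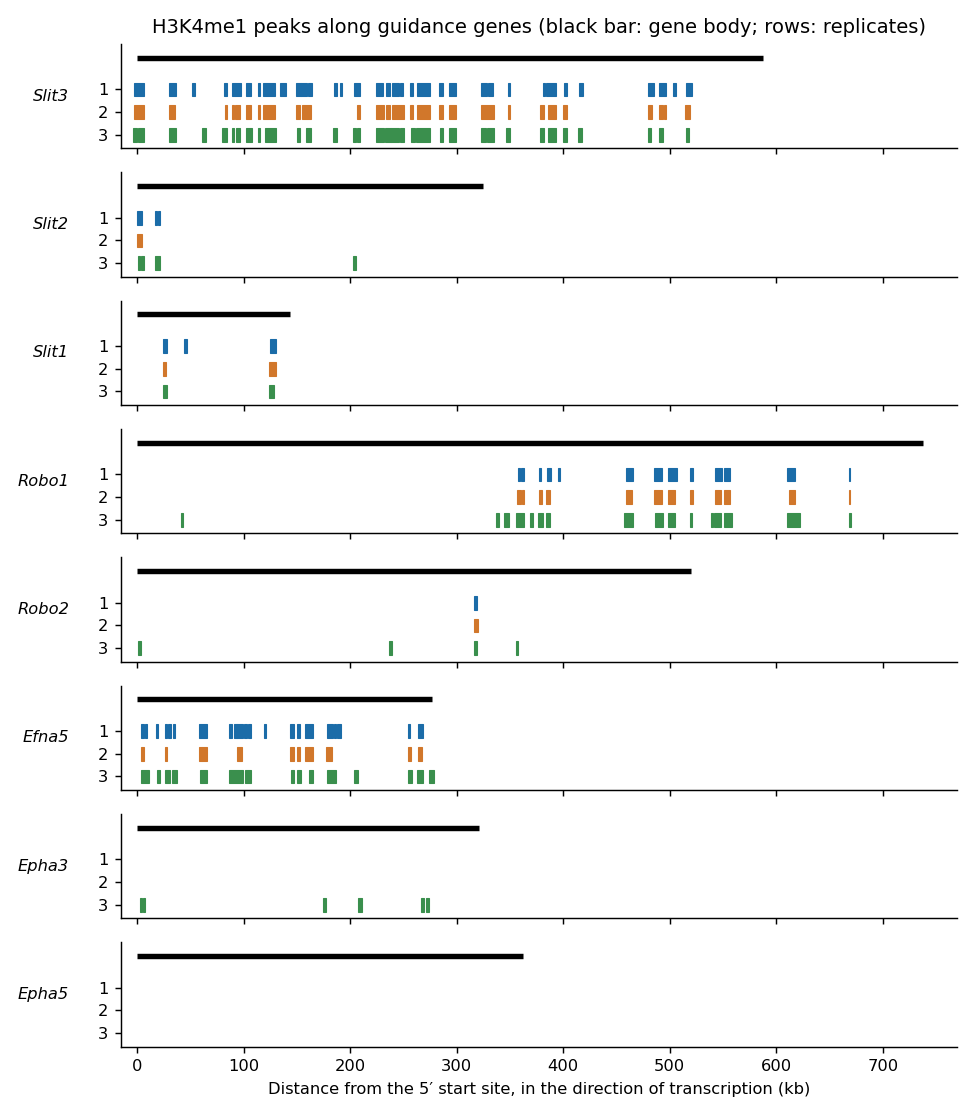
Positions of the H3K4me1 peaks (coloured blocks, 1 row per replicate) along 8 guidance genes, against the distance in kb from the 5′ start in the direction of transcription (horizontal axis, the same for all). Black bars are the gene bodies. Peaks run along Slit3 and Efna5, lie beyond 355 kb in Robo1 in replicates 1 and 2, are in replicate 3 alone over Epha3 and are missing over Epha5.

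Of the EphB receptors, Ephb3 and Ephb2 were the most strongly marked. Both bind ephrin-B ligands and act together in closure of the palate. Ephb3 (ENSMUSG00000005958.15, chr16:21204755-21223305, plus strand) had percentiles of 97.0, 98.2 and 95.6, and 4.76% of the 21 genes of its length with a peak in all 3 replicates ranked as high. Its region of 12388 bp had its highest pileup over an untranslated region. Ephb2 (ENSMUSG00000028664.14, chr4:136647539-136835988, minus strand) had 12, 9 and 10 peaks, against a mean of 2.48, and percentiles of 96.3, 94.8 and 87.4. Of its 9 regions, 7 were shared by the 3 replicates.

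The remaining EphB receptors had few or weak peaks. Ephb1 had 3, 1 and 1 peaks, with percentiles of 83.0, 71.5 and 61.8, in a gene of 433 kb. Ephb4, the receptor of venous endothelium, had 1 and 2 peaks in replicates 1 and 2, the strongest at percentiles 38.2 and 8.67 at neighbouring sites, and none in replicate 3. Ephb6, a receptor without kinase activity, had a single peak, in replicate 1, at percentile 7.83. That peak lay in the downstream flank and over the body of the neighbouring gene Trpv6, so that no peak lay within Ephb6 itself.

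Of the EphA receptors, Epha4 had the strongest mark. Epha4 (ENSMUSG00000026235.14, chr1:77367185-77515088, minus strand) encodes a receptor that binds ephrins of both classes. It had 4, 5 and 5 peaks, against a mean of 1.67 over genes of its length. Its percentiles were 92.3, 82.8 and 98.8, in a region of 23356 bp merged over the replicates. Epha8 had 1 peak in each replicate, at percentiles 93.7, 94.0 and 48.2, with its highest pileup outside the gene, 7.38 kb upstream in replicate 1. Epha2, an EphA receptor of epithelia, had 3, 3 and 2 peaks. Its percentiles were 90.6, 78.3 and 36.6, the first from a region downstream of the gene, and its intronic region 9.97 kb from the start was at 84.4, 78.3 and 36.6.

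The other 6 EphA receptors had no peak in at least 1 replicate. Epha1 had 2, 1 and 0 peaks, and its region at percentiles 53.3 and 46.1 lay downstream, over Zyx. Epha7 had 1 intronic peak in replicate 1 at percentile 15.3 and 1 in replicate 3 at 63.5. Epha3 had 6 intronic peaks in replicate 3, the strongest at percentile 38.5, and none in replicates 1 and 2. The other peak of Epha1, in replicate 1, had its highest pileup in an intron, at percentile 18.4, so that no peak lay within Epha1 in replicates 2 and 3.

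Epha5, Epha6 and Epha10, receptors described mainly in neurons, had no peak in any replicate. The nearest peaks lay 3030, 3030 and 2004 kb from the body of Epha5, in an interval of 35.3% G and C. For Epha6 they lay 54.3, 53.4 and 53.2 kb away, and for Epha10 49.3, 49.8 and 49.8 kb. Of genes of like length, 28.0% had no peak in any replicate for Epha5, 31.3% for Epha6, 70.5% for Epha10 and 33.5% for Neo1. Of genes of like length and G and C content the shares were 64.0, 58.0, 42.0 and 52.0%. Having no peak was thus common among genes like these, and over all genes the share was 71.3%.

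**Figure D4:**
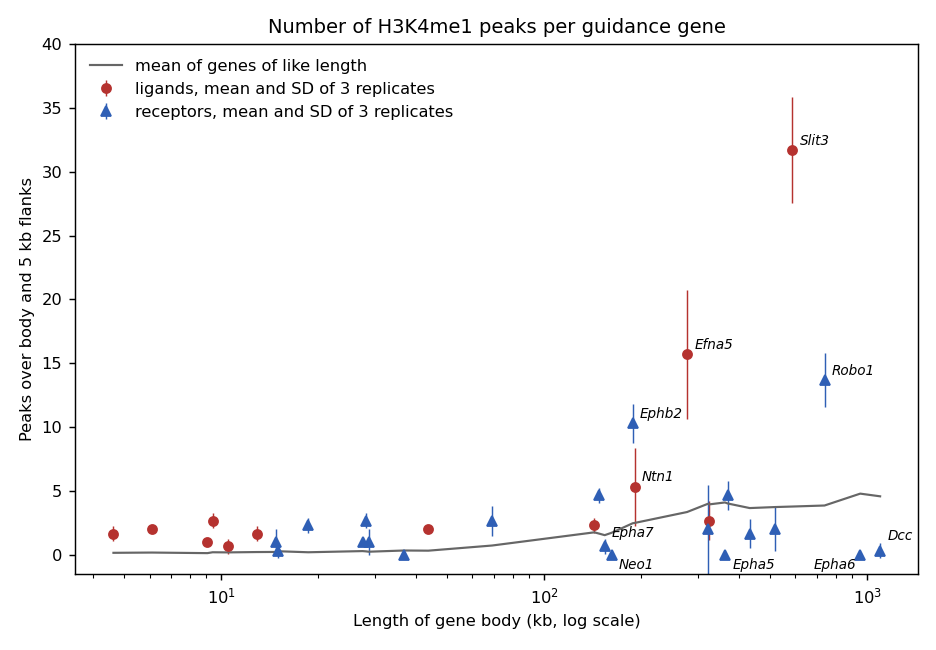
Mean number of H3K4me1 peaks over the body and 5 kb flanks (vertical axis) against the length of the gene body in kb (horizontal axis, log scale), for ligands (circles) and receptors (triangles), with the SD of 3 replicates as bars, of which that of Epha3 runs below the axis. The grey line joins the means of genes of like length at each member. Slit3 sits at 31.7 peaks, Efna5 at 15.7, Robo1 at 13.7 and Ephb2 at 10.3, and Epha5, Epha6 and Neo1 sit at 0.

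In number of peaks the ligands lay further above genes of their length than the receptors did, and a few genes made up most of this. The 32 genes held 134, 101 and 126 peaks, 2.01 ± 0.0552 (SD, n = 3) times the number over genes of like length. The 12 ligands held 83, 58 and 67 peaks, a ratio of 4.10 ± 0.212, and Slit3 and Efna5 contributed 56, 38 and 48 of them. The 20 receptors held 51, 43 and 59, a ratio of 1.19 ± 0.146. The ratio was 5.63 ± 0.560 for the ephrins, 3.84 ± 0.115 for the Slits and 2.26 ± 0.373 for the EphB receptors, but 0.70 ± 0.163 for the EphA receptors. Without Slit3 and Efna5 the ratio of the ligands was 2.26 ± 0.171. With genes matched on length and G and C content it was 2.90 ± 0.278 for all ligands and 2.03 ± 0.192 for the receptors, and that of the EphA receptors lay above 1, at 1.90 ± 0.221, and that of the EphB receptors at 1.27 ± 0.101. The excess of ligands in number thus depended on these genes and on the genes set beside them.

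The peaks over guidance genes merged into 142 regions, none of them shared by 2 members. A peak in all 3 replicates was present in 80 (56.3%), against 46.3% of the 19246 regions of the genome. A further 23 had a peak in 2 replicates and 39 in 1, of which 14 were in replicate 1, 2 in replicate 2 and 23 in replicate 3. The 80 shared regions had a median length of 6992 bp, against 5002 bp for all 8916 shared regions, and a median G and C content of 46.9% against 47.3%. In 73 of the 80 (91.2%) the highest pileup was in an intron, against 77.1% over the 6987 pairs of a shared region and a protein-coding gene. Of the 142 regions, 5 reach into the body of another protein-coding gene. Slit3, Robo1 and Efna5 gave 33, 17 and 17 of the 142 regions, and 26, 11 and 10 of the 80 shared ones. The shares, lengths and places given here thus rest in large part on a few long genes. Regions over genes of like length were not set beside them.

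A peak within 1 kb of an annotated protein-coding start was less common. It was present in 15, 14 and 9 of the 32 genes, against 12.5, 12.1 and 8.75% of all genes. In all 3 replicates it was present at 7 (21.9%), against 6.16% of all genes. Of the genes with a peak over body or flanks in all 3 replicates, these were 7 of 21, against 1339 of 3372 over the genome. By that measure a start-site peak was no more common in the guidance genes. These 7 were the ligand genes Efna1, Efna3, Efna4, Efnb3, Slit2 and Slit3, which made up 50% of the ligands, and the receptor gene Ephb3, 5% of the receptors. Without replicate 3 there were 12. Efna5, Efnb2 and Slit1 had no peak at a start in any replicate, although all had strong peaks further into the gene.

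Over the 21 genes with a peak in all 3 replicates, the median of the mean percentile was 82.1, against 71.9 over the 3372 such genes of the genome. A mean percentile of 90 or more was reached by 9 of the 21 (42.9%), against 23.1%. Neither comparison was matched on length, and long genes have more peaks from which the strongest is taken. Among genes of like length with a peak in all 3 replicates, 0 (Efnb2) to 24.7% (Epha4) ranked as high as these 9. For the rest of the 21 this share ran from 26.3% (Efna1) to 85.9% (Robo2). The 9 at 90 or more were Unc5b, Slit3, Efnb2, Ephb3, Ephb2, Efna5, Robo1, Efnb1 and Epha4. Several neighbours in this order differed by less than the spread over replicates, Ephb2 at 92.8 ± 4.79, Efna5 at 92.7 ± 3.37 and Robo1 at 92.6 ± 4.30 (SD, n = 3), while Unc5b at 99.8 ± 0.162 lay above Slit3 at 97.5 ± 0.915 in each replicate.

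Replicate 3 differed from the others, and base composition moved with the difference. Among the 14 genes with a peak in all 3 replicates and 45% or more G and C over the body and flanks, the percentile in replicate 3 less the mean of replicates 1 and 2 had a median of -11.8 and was below 0 in 12. Among the 7 genes under 45% it had a median of 6.68 and was below 0 in 1, Slit2. The largest falls were in Efna4 (-80.9 points), Efnb3, Epha2 and Epha8, and the largest gain in Robo2 (25.1 points). Over these 21 genes the difference and the G and C content had a Spearman rho of -0.762, while the difference between replicates 1 and 2 had one of -0.256. These are descriptions over genes that share 3 lists, and in Epha2, Ephb2, Ntn1, Robo1 and Slit2 the percentiles come from more than 1 site. The genes with peaks in replicate 3 alone, Epha3 and Dcc, had 36.2 and 37.1% G and C, and Efna2, Epha1 and Ephb4, without a peak in replicate 3 alone, had 55.5, 48.8 and 50.4%. The part of base composition in these differences was not tested.

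**Figure D5:**
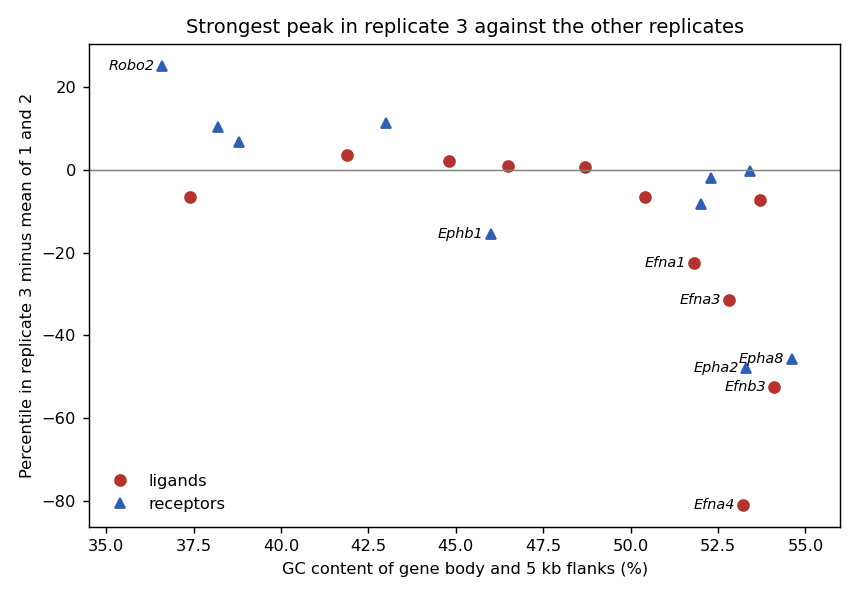
Percentile of the strongest peak in replicate 3 less the mean of replicates 1 and 2, in percentage points of rank (vertical axis), against the G and C content in percent of the body with 5 kb flanks (horizontal axis), for the 21 guidance genes with a peak in all 3 replicates. Genes under 45% sit between -6.47 and 25.1, and those at 45% or more between -80.9 and 0.876.

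Other genes of the same pathways were counted for comparison. Of 16 further extracellular or receptor genes, 10, 9 and 10 had a peak and 8 had one in all 3 replicates (50%, against 22.8% of genes of like length). The highest were Ntn3, a netrin, at percentiles 98.0, 98.1 and 94.0, Rgma at 95.4, 95.9 and 93.2, and Rgmb at 92.6, 87.6 and 94.0. Rgma and Rgmb encode repulsive guidance molecules that bind Neo1, which itself had no peak. Robo3, Robo4, Unc5a, Dscam and Draxin had no peak in any replicate. Of 24 intracellular effectors of these receptors, 17, 15 and 18 had a peak and 15 had one in all 3 replicates (62.5%, against 42.1%). Trio, a guanine exchange factor downstream of Dcc and other receptors, was at percentiles 99.9, 99.9 and 100, the kinase Fyn at 98.4, 99.2 and 97.4, and the kinase Abl1 at 96.4, 94.2 and 96.9.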

How the data were processed

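H3K4me1 was profiled by CUT&Tag in 3 E12 whisker pads, and per the submitters' processing notes Bowtie2 2.3, SAMtools 0.1.19, bedtools and SEACR 1.3 were used with build mm10. Each pad had its own SEACR call by the authors, in stringent mode and without IgG, keeping the top 1% of signal blocks. The roles of the other tools and the treatment of duplicate reads are not given in the sources used here. The deposited lists give for each peak its coordinates, total signal, maximum signal and the position of the maximum, and all signal values were whole numbers, not scaled to depth. Since the lists hold a fixed share of blocks, the number of peaks is no measure of enrichment, and the lists hold no read counts.

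Peaks were assigned to the longest GENCODE M21 gene of each symbol (protein-coding, chromosomes 1 to 19 and X) with 5 kb on either side, by an overlap of at least 1 bp. Genes of like length were the 100 shorter and 100 longer genes nearest in length (163 genes for Epha6 and 145 for Dcc, at the end of the range). From these, the 50 nearest in G and C content of the interval gave genes of like length and G and C content. Peaks of the 3 replicates that overlapped by at least 1 bp were merged into regions. Percentiles were taken by total signal within each list. All 32 genes are accounted for. Full values were given for the 12 with the highest mean percentile among those with a peak in all replicates, for those with a peak in fewer than 3, and for the 5 with the most regions, and of the other pathway genes for the 3 highest in each list. The members and lists were chosen with earlier results of these data known. Scripts used Python 3.11.15, numpy 2.4.6 and pandas 2.3.3, and were tested on simulated data. Replicates are separate pads. The exact permutation test over them gives its smallest p of 0.25 whenever the 3 values share a sign, whatever their spread.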

Additional observations from a re-analysis of the deposited data

How the results depend on the processing

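Across 84 alternatives over 9 results, 66 kept the result and 18 moved it. Beyond the limits of cut lists and of left-out replicates given below, the cause was not tested. Keeping meant a value within the spread or count limit, or the same sign for the differences between ligands and receptors. A reversal could be counted for those differences alone, and none of them reversed. The share of guidance genes with a peak lay 37.1 percentage points above genes of like length, 33.7 without flanks, 33.0 with flanks of 20 kb, 39.4 with the strongest 10000 peaks, 32.3 by the place of the highest pileup, 32.4 with at least 50% of the peak inside and 34.7 with matching on length and G and C content. For ligands, the ratio of peaks to genes of like length of 4.10 became 4.80 with the stronger 50% of peaks, 4.72 with the strongest 10000, and, in alternatives chosen after seeing the data, 2.90 with G and C matching and 2.26 without Slit3 and Efna5. For receptors, 1.19 became 1.41 with the stronger 50% and, added likewise, 2.03 with G and C matching. The median percentile of 82.1 became 74.6 with the strongest 10000 peaks and 74.5 per base. Percentiles were ranked again within each cut list, so that the percentile of any given gene could only fall there. The 7 genes with a start-site peak became 4 with the stronger 50% and 13 within 2.5 kb.

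Leaving out each replicate in turn gave 21 to 24 genes with a peak in every remaining replicate. The share lay 36.0 to 38.1 points above genes of like length. The ligand excess was 28.3 to 35.0 points (39.2 to 44.5 with length matching). Ratios were 3.97 to 4.17 for ligands and 1.12 to 1.26 for receptors, and the median percentile was 78.9 to 87.9. Of the regions 62.3 to 74.4% were shared, and 7 to 12 genes had a start-site peak, the highest of both ranges without replicate 3. Only 2 lists had to agree here, so the counts of genes could only stay level or rise. Shared regions were judged less strictly in the same way. For the 12 genes named by percentile, 26 of 117 alternatives moved the value. On the cut lists the value could only fall, as in Slit3 from 97.5 to 95.0 with the stronger 50% of peaks. Ligand and receptor shares were compared within each replicate. No paired analysis was possible because no second group of samples was used here, the IgG libraries with like numbers being not analysed. Lists without read counts limit the text to ranks and presence, and weak marks below the top 1% were not seen.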
